A study of Homo sapiens and Mus musculus with 10 samples.

Results

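K562 is a human erythroleukaemia line, and its accessible chromatin was compared here with that of 3 other human lines: GM12878 (B cells immortalised with Epstein-Barr virus), HEK293T (embryonic kidney with the SV40 large T antigen) and HFF1 (foreskin fibroblast). Of the 10 libraries of the series, 2 came from K562 and 6 from these other lines, with 2 libraries a line, and the mouse libraries were not used. Bulk ATAC-seq marks open chromatin by the sites at which the Tn5 transposase inserts adapters, and 1 list of peaks was deposited for each library. Sorted nuclei of untreated lines were profiled, the labels name no edit, agent or time, and they do not say whether the 2 libraries of a line came from separate cultures. A gene counted as open in a library when at least 1 peak fell less than 1 kb from any of its annotated start sites, and a peak outside all such windows is called distal. Of 19970 protein-coding genes, 224 were open in both K562 libraries and in none of the 6 others (1.12%), and 344 were open in all 6 others and in neither K562 library (1.72%). Of 43554 distal regions with a peak in both K562 libraries, 13920 had no peak in the 6 others (32.0%). These sets are called K562-only genes, K562-absent genes and K562-only distal regions below.

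Red cell identity rests on a small group of DNA-binding proteins. GATA1, a zinc-finger factor that binds the letters GATA, works in a complex with TAL1, a basic helix-loop-helix factor, and with the bridging proteins LMO2 and LDB1. The complex is known to bind enhancers and promoters of globin, blood group and haem synthesis genes, often at a GATA site with a short CTG element a fixed distance before it. K562 cells come from a chronic myeloid leukaemia in blast crisis, make embryonic and foetal globins, and are widely used as a model of early erythroid cells.

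The sequences below are shown because they hold that composite site: CTG, then 7 or 8 bases of any kind, then AGATAA. They are the 50 bases of GRCh38 on each side of the summit of a K562-only distal region whose nearest gene belongs to the erythroid lists described below. Regions whose stretch touches an exon were left out, and the 9 that came first by composite site, number of GATA matches and rank were taken. Capitals mark the letters of the composite site and every GATAAG, on either strand (CTTATC is GATAAG on the other strand).
NFIA (chr1:61013370-61013470): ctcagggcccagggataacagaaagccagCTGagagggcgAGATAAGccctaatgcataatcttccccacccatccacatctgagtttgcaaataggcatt
SOX6 (chr11:16337989-16338089): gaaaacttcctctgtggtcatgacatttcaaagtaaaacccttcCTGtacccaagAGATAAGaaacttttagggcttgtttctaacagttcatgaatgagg
FOXO3 (chr6:108576083-108576183): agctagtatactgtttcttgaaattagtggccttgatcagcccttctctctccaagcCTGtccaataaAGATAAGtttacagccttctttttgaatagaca
RHD (chr1:25302507-25302607): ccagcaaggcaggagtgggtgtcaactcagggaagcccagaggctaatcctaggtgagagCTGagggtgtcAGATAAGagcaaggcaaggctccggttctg
SLC4A1 (chr17:44246155-44246255): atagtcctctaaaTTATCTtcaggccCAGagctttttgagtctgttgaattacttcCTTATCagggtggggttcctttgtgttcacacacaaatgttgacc
HBZ (chr16:145031-145131): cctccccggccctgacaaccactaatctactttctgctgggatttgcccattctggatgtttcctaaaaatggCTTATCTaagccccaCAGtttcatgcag
ALAS2 (chrX:55028172-55028272): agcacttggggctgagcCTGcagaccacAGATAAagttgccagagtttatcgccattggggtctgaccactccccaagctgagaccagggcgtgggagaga
EPB41 (chr1:28902858-28902958): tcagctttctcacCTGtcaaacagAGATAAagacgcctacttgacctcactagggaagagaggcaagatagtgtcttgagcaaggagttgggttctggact
GYPC (chr2:126676971-126677071): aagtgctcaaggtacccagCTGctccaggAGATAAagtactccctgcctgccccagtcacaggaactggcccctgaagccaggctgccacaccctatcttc

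These 9 regions lay near genes with different roles in the red cell. NFIA and SOX6 encode transcription factors of erythroid maturation, and FOXO3 a factor of stress resistance. ALAS2 starts haem synthesis in red cell precursors. RHD carries the D blood group antigen, SLC4A1 is the anion exchanger band 3, GYPC is glycophorin C and EPB41 is protein 4.1 of the membrane skeleton. HBZ encodes the embryonic zeta globin. The fold of a peak is the authors' ratio of its summit over the local background of its own library. It was 10.6 in K562 replicate 1 and 9.43 in replicate 2 at the NFIA region, 12.9 and 10.9 at the ALAS2 region, and 3.35 and 4.13 at the HBZ region. By the rule, none of the 6 other libraries had a peak in any of the 9. The ALAS2, EPB41 and GYPC regions hold the composite site without a GATAAG.

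Both markers of the line were open in K562 alone. GATA1 (chromosome X, 48786540 to 48794311) had promoter folds of 4.08 and 4.71 in the 2 K562 libraries. TAL1 (chromosome 1, 47216290 to 47232225) had folds of 5.75 and 5.86. Neither gene had a promoter peak in GM12878, HEK293T or HFF1, so both markers were found in the libraries labelled K562 and in no other. KLF1, another defining erythroid factor, had no promoter peak in any of the 8 libraries.

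The K562-only genes held globin, blood group, platelet, myeloid and germline genes. Members are described beside the share of all genes that met the same rule, which was 1.12%. The 15 best-ranked were chosen by the lower of the gene's 2 percentiles, each being the place of its best promoter peak by −log10 p within one K562 list. RHAG, the Rh-associated glycoprotein that carries the Rh blood group complex to the membrane, was the third of them, with folds of 9.50 and 9.53 and a summit 16 bp from its start site. SERPIND1 (heparin cofactor II) had 9.79 and 10.5. GP6, the platelet collagen receptor, had 9.0 and 9.73. TCF15, a basic helix-loop-helix factor of mesoderm, had 14.8 and 14.2, and DNAH9, an axonemal dynein chain, had 15.6 and 17.5. The ranking favours genes high in both K562 libraries. The rule itself asks for no peak in the 6 others, so neither is a separate result. The rest of the 15 were ZNF467, SSX1, CARD18, MAGEB2, TAL1, POTEE, ZNF280A, C19orf33, HBG2 and HBE1, with K562 folds between 5.29 and 17.5.

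**Figure D1:**
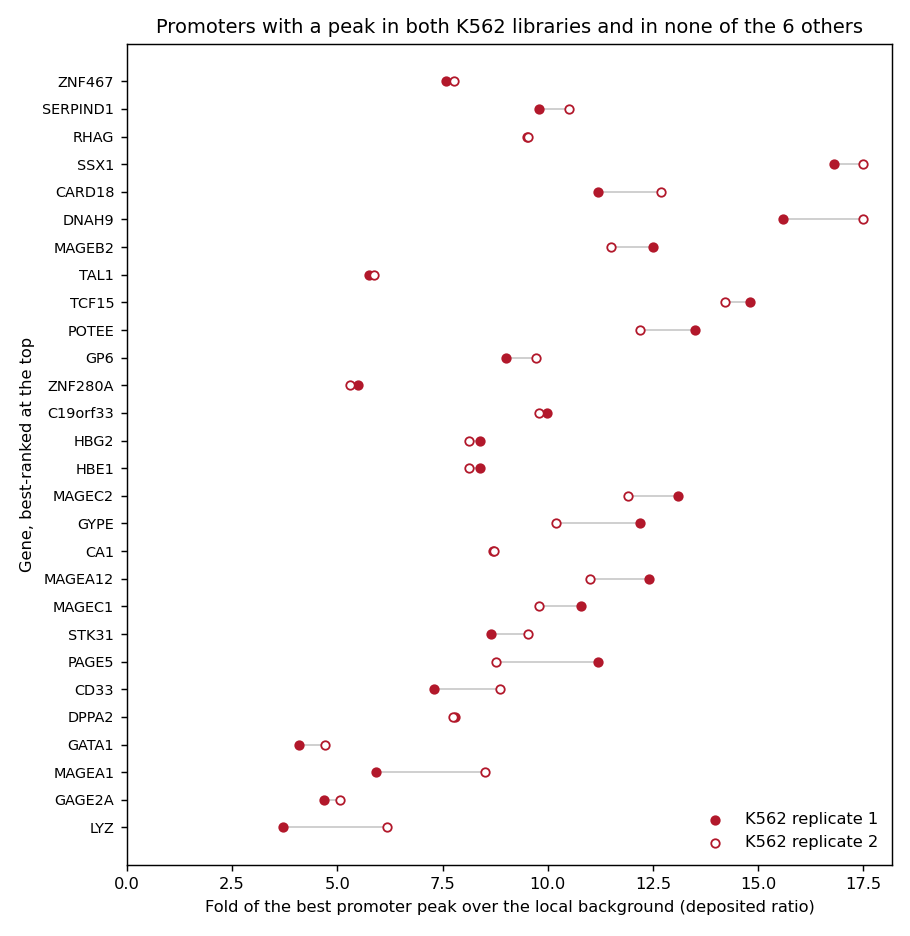
Fold of the best promoter peak (x axis, the authors' ratio of summit to local background) in K562 replicate 1 (filled) and replicate 2 (open) for the 15 best-ranked K562-only genes and the K562-only members of the gene lists (y axis). The folds run from 3.71 at LYZ to 17.5 at SSX1 and DNAH9. By the rule, no gene shown had a peak in the other 6 libraries.

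Most K562-only peaks sat at a start site. For 146 of the 224 genes (65.2%) the summit in K562 lay within 200 bp of a start site of the gene, and for 54 genes (24.1%) it lay more than 1 kb from the most upstream one. The rule asks for a peak less than 1 kb from a start site, so short distances are partly built in. The same share was not computed for other open genes. For 26 of the 224 genes the window overlapped that of another protein-coding gene, so 1 peak could open both. The median fold over the 224 genes was 6.14 in K562 replicate 1 and 6.28 in replicate 2, and the folds ran from 2.70 to 17.5 over both. Just outside the rule, 100 genes were open in 1 K562 library and none of the 6, and 85 were open in both K562 libraries and in 1 of the 6.

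Most K562-only genes were CpG-poor around their most upstream start site. The observed over expected CpG ratio compares CpG dinucleotides in 1000 bases around that site with the number their C and G content would give. For the 54 genes with a summit more than 1 kb from that site, the ratio does not describe the sequence at the summit. Its median was 0.347 over the K562-only genes, 0.725 over the K562-absent genes and 0.688 over all genes. A ratio of at least 0.6 was found in 48 of 224 K562-only genes (21.4%), in 232 of 344 K562-absent genes (67.4%) and in 60.1% of all genes. Genes open in 1 other line alone gave 7.86% in GM12878, 65.7% in HEK293T and 28.4% in HFF1, so K562 lay between GM12878 and HFF1.

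The promoters of 4 K562-only genes of the erythroid lists were searched for the same letters. GATAAG was found in those of RHAG and TAL1, shown here, and not in those of GATA1 and GYPE. It was found in 714 of the 15316 promoters of all genes matched by symbol (4.66%). The stretches are the 250 bases before the RefSeq start site (GRCh38.p14, minus strand, read 5′ to 3′), with GATAAG in capitals on either strand. The K562 summit of RHAG lies inside its stretch, and so does that of TAL1.
RHAG (chr6:49636840-49637089): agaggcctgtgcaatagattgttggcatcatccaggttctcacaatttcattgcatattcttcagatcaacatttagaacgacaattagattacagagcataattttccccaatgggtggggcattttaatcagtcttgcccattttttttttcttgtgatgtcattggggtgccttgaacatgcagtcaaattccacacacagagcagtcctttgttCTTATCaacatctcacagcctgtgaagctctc
TAL1 (chr1:47232336-47232585): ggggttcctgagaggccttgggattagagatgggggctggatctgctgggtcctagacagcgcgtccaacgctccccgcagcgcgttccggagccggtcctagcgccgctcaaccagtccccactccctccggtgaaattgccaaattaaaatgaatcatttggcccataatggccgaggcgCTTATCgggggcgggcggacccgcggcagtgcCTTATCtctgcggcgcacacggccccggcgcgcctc

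GATAAG was found within 50 bases of the K562 replicate 1 summit in 27 of 217 distinct promoter peaks of K562-only genes (12.4%). It was found in 1.27% of the 10252 promoter peaks of genes open in all 8 libraries. The composite site was found in 2.76% and 0.117% of the same peaks. The letters read backwards, GAATAG, gave 0.461% and 0.741%. No test was made of these shares, since the peaks were chosen by the contrast.

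The erythroid transcription factor genes were mostly open in every line. Of the 29 genes on that list, 26 were open in both K562 libraries (89.7%, against 70.4% of all genes), and 18 were open in all 8 libraries. The numbers open in both libraries of the other lines were 25 in GM12878, 21 in HEK293T and 24 in HFF1, and the shares of all genes were 71.9%, 67.8% and 76.2%. Only GATA1 and TAL1 of the 29 were K562-only (6.90%). Of the 29, 20 were nearest to at least 1 K562-only distal region, against 33.1% of all genes. In all, 100 of the 231 K562 distal regions nearest to them had no peak elsewhere (43.3%, against 32.0% of all K562 distal regions). The same genes had 105 of 220 distal regions open in GM12878 alone (47.7%, against 47.6% of all of that line), 14 of 80 in HEK293T alone (17.5%, against 15.3%) and 209 of 327 in HFF1 alone (63.9%, against 58.5%). Line-only distal regions near these genes were therefore not particular to K562.

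Long genes held many of these regions. NFIA, itself a factor that favours red cell over granulocyte fate, had 18 of its 35 K562 distal regions in K562 alone, and SOX6, which acts at globin genes, had 14 of 22. RUNX1, a master factor of blood stem cells, had 10 of 23. KLF3 and ZFPM1 (FOG1, the partner protein of GATA1) had 7 of 13 and 7 of 10, GFI1B (a repressor needed for erythroid and platelet cells) 6 of 8, MYB (a progenitor factor) 6 of 11 and IKZF1 (Ikaros, a lymphoid factor) 6 of 14. GATA2 had 4 of 7, MECOM 4 of 9, FOXO3 4 of 13, LMO2 3 of 9, and TAL1 both of its 2 regions. Other members had few, with 1 of 12 at CBFA2T3 and none of 7 at HHEX or of 5 at LYL1. The GATA1 locus had 1 such region, 3495 bp from the start site (chromosome X, 48782893 to 48783236), with folds of 6.91 and 8.35. The best-ranked LMO2 region, between genes and 52845 bp from a start site, had folds of 8.33 and 8.45. A gene with a large neighbourhood can hold more regions of any kind, so the number of its own K562 regions is given with most of these counts.

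The beta-globin cluster on chromosome 11 was covered with peaks in K562. It holds, in order towards its upstream control region, HBB (adult beta), HBD (delta), HBG1 and HBG2 (foetal gamma) and HBE1 (embryonic epsilon). This window of 45 kb on each side of the HBE1 start site was chosen after its values were seen. It held 13 peaks in K562 replicate 1 and 12 in replicate 2. GM12878 had 2 peaks in each library, HEK293T had 1 in each, and HFF1 had 3 and 4. The 8 lists merged into 14 regions, of which 11 had a peak in both K562 libraries and 8 of those had none in the 6 others. A peak at the HBE1 start site itself (5269747 to 5270125) had folds of 5.75 and 5.86 in K562.

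Upstream of HBE1, 5 regions were open in both K562 libraries. They lay 6.0, 10.8, 14.8, 18.3 and 21.5 kb before the start site, in the stretch known as the locus control region. The regions at 6.0, 14.8 and 18.3 kb were K562-only, with folds of 6.21 and 5.50, 4.26 and 4.45, and 7.36 and 7.72. The region at 10.8 kb, which holds the NF-E2 letters GCTGAGTCA, was also open in GM12878 and HFF1. Its folds were 8.42 and 7.77 in K562, 15.7 and 15.3 in GM12878, and 15.9 and 18.0 in HFF1. The region at 21.5 kb was open in all 8 libraries, with folds of 6.93 and 6.28 in K562. It had 13.3 and 14.6 in GM12878, 8.28 and 12.2 in HEK293T, and 10.5 and 6.86 in HFF1. Each fold is relative to its own library, so folds of different lines need not share a scale. At HBD a region was open in both K562 and both HFF1 libraries, with folds of 7.40 and 5.92 in K562 and 6.12 and 5.88 in HFF1. A region at -44.2 kb, which touches an exon of HBB (5225589 to 5225812), had folds of 5.29 and 4.85 and holds both GATAAG and the composite site.

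**Figure D2:**
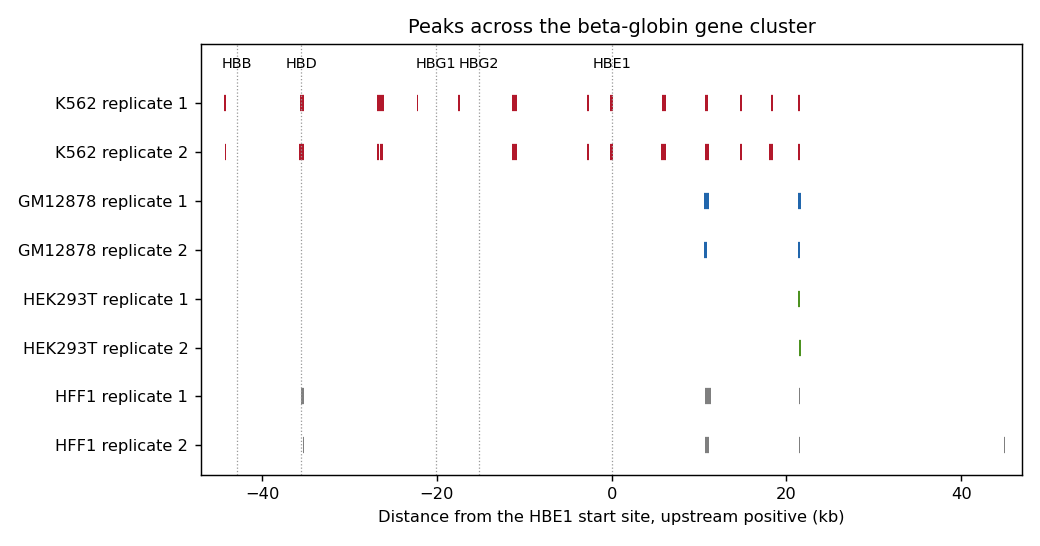
Deposited peaks (bars, to scale) of the 8 human libraries by distance from the HBE1 start site in kb, upstream positive, with dotted lines at the start sites of 5 globin genes. K562 has 13 and 12 peaks, and the other libraries have 1 to 4 each.

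HBG2 and HBE1 were both K562-only by the rule, and part of that call came from a distant start site. GENCODE gives both genes long transcripts that begin 235.7 kb before the HBE1 start site, and 1 peak there with folds of 8.38 and 8.12 opened both windows. HBE1 was open at its own start site as well, while HBG1 and HBG2 had no K562 peak at theirs. HBG1 and HBG2 are near-identical copies, as are HBA1 and HBA2, of which HBA2 had no peak in any library and HBA1 none in K562. How reads from such copies were placed is not given in the sources used here, so their calls are uncertain. Of the 11 genes on the globin list, which includes the chaperone AHSP, 6 were open in both K562 libraries (54.5%, below the 70.4% of all genes), against 3 in GM12878, 1 in HEK293T and 4 in HFF1.

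Red cell membrane and blood group genes gave the widest gap between K562 and the other lines among the erythroid lists. Of 29 genes, 27 were open in both K562 libraries (93.1%, against 70.4% of all genes). The other lines had 16 in GM12878, 13 in HEK293T and 17 in HFF1, and 13 were open in all 8 libraries. RHAG and GYPE (glycophorin E, with folds of 12.2 and 10.2) were K562-only. Others were open in both K562 libraries and in 1 of the 6 others, among them GYPB (glycophorin B), EPB42 (a protein of the membrane skeleton), ACKR1 (the Duffy antigen), ICAM4 and ART4. GYPB and GYPE are near-identical in part, and their calls carry the same uncertainty as those of the gamma globins. RHD and SLC4A1 were the 2 genes without a promoter peak in any library, and both had K562-only distal regions, 3 at RHD and 1 at SLC4A1.

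Distal regions of the same list were K562-only in 56 of 114 cases (49.1%, against 32.0% of all K562 distal regions), and 24 of the 29 genes had at least 1. The shares for the same genes were 37.2% in GM12878, 8.82% in HEK293T and 46.5% in HFF1, each below that line's share over all genes given above. GYPC had 6 of 14, among them the best-ranked of the list, 347658 bp from its start site, with folds of 9.41 and 9.44. RHAG had 3 of 4, and the best of them lay 9556 bp from the start site with folds of 9.39 and 10.6. ANK1 (ankyrin) had 4 of 11 and SLC2A1, the glucose carrier, 4 of 11.

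Haem and iron genes were mostly open in every line. Of 21, 19 were open in both K562 libraries (90.5%, against 70.4% of all genes), and 19 in each of the other lines. CA1, the red cell carbonic anhydrase, was the only K562-only member, with folds of 8.70 and 8.73. HMOX1, which breaks down haem, was K562-absent, with folds from 8.28 to 12.1 and a median of 9.63 in the 6 others. ALAS2 had no promoter peak in any library, yet it had 2 K562-only distal regions inside its own introns, with folds of 11.8 and 10.9 at 5219 bp and 12.9 and 10.9 at 2754 bp from a start site. SLC25A37 (mitoferrin, the mitochondrial iron carrier) was nearest to the region ranked sixth of all K562-only distal regions, 34630 bp away, with folds of 12.7 and 12.9. The share of distal regions that were K562-only was 31.9% for this list, near the 32.0% of all K562 distal regions.

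Other blood lineages were checked the same way. Of 20 megakaryocyte and platelet genes, 7 were open in both K562 libraries (35.0%, against 70.4% of all genes). The other lines had 8 in GM12878, 7 in HEK293T and 7 in HFF1. GP6 was the K562-only one, and 8 genes had no peak in any library. Of 20 myeloid genes, 8 were open in both K562 libraries (40.0%), against 14 in GM12878, 3 in HEK293T and 9 in HFF1. LYZ (lysozyme, folds of 3.71 and 6.18) and CD33 (7.30 and 8.86) were K562-only. Of 20 genes expressed across blood cells, 16 were open in both K562 libraries (80.0%), 20 in GM12878, 5 in HEK293T and 11 in HFF1. SPN, CD52 and NCKAP1L of these were open in K562 and GM12878 alone. PTPRC, the leukocyte common antigen CD45, was open in neither K562 library. Of 10 progenitor receptors, 5 were open in both K562 libraries (50.0%), against 7 in GM12878, 7 in HEK293T and 10 in HFF1. KIT and EPOR (the receptors for stem cell factor and erythropoietin) were among those open in K562. CD34 was open in neither K562 library and in 5 of the 6 others, and FLT3 was K562-absent.

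**Figure D3:**
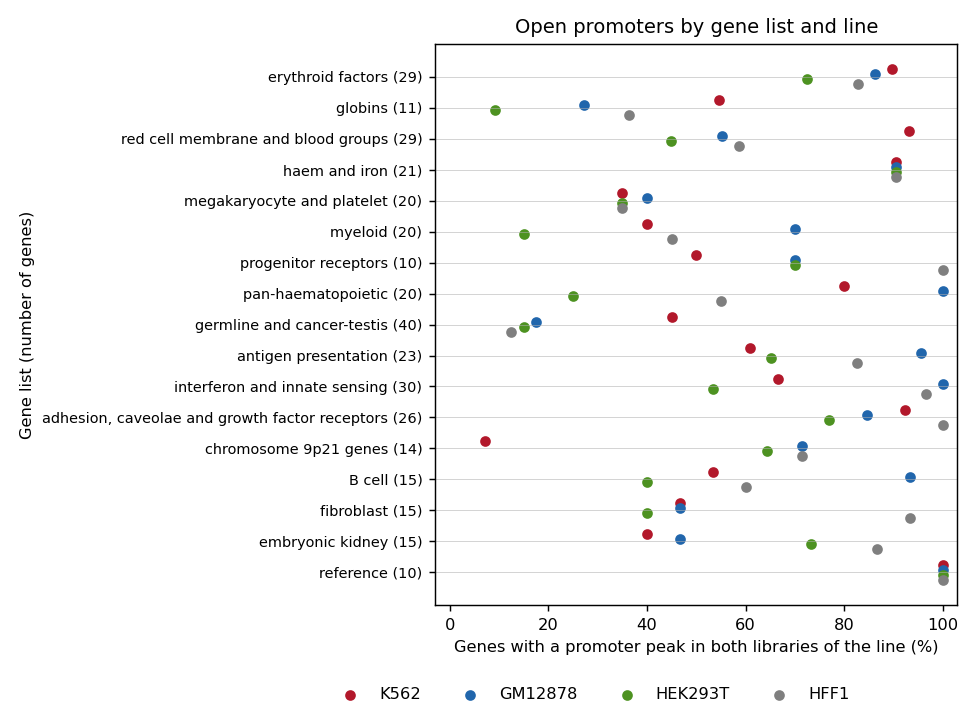
Share of genes of each list (y axis, number of genes in brackets) with a promoter peak in both libraries of a line (x axis, percent), with 1 point a line. Red cell membrane genes lie at 93.1% in K562, germline genes at 45.0% and chromosome 9p21 genes at 7.14%.

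Germline and cancer-testis genes made up the largest group among the K562-only members of the lists. These genes are normally used in the testis and are silent in most adult tissues, and many lie on the X chromosome. Of 40, 18 were open in both K562 libraries (45.0%, below the 70.4% of all genes), against 7 in GM12878, 6 in HEK293T and 5 in HFF1, and 10 were K562-only (25.0%, against 1.12% of all genes). This list, like the others, was drawn up with earlier results of these data known, so part of that share can be built in. SSX1, a transcriptional corepressor of the testis, had folds of 16.8 and 17.5. MAGEC2 had 13.1 and 11.9, MAGEB2 12.5 and 11.5, MAGEA12 12.4 and 11.0, and MAGEC1 10.8 and 9.79, all members of the MAGE family of ubiquitin ligase partners. MAGEA1 had 5.92 and 8.50, PAGE5 11.2 and 8.76 and GAGE2A 4.68 and 5.06. Off the X chromosome, STK31, a kinase-like testis protein, had 8.65 and 9.54, and DPPA2, a factor of pluripotent and germ cells, 7.79 and 7.75. By the rule, none of these genes had a promoter peak in the 6 other libraries.

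Counted by family, 5 of 35 MAGE genes were K562-only, and all 5 are on the list and named above. SSX had 2 of 9, GAGE 2 of 13 and PAGE 2 of 6, and in each of these families 1 of the 2 is outside the list (SSX3, GAGE2E and PAGE4). Of 9 TDRD genes (Tudor domain proteins of the germline) 3 were K562-only, TDRD5, TDRD6 and TDRD15. Several MAGE, SSX and GAGE genes are near-identical copies, and their calls are uncertain for the reason given above. The X chromosome held 23 of the 224 K562-only genes, 2.68% of its 859 genes, and chromosome 19 held 33 of its 1476 (2.24%), against 1.12% of all genes. Olfactory receptor genes gave 11 K562-only of 416 (2.64%), and clustered protocadherins 6 of 53. These families were grouped by symbol after the values were seen.

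The K562-absent genes included a block on chromosome 9p21. The 9p21 list held 14 genes, of which 7 were K562-absent (50.0%, against 1.72% of all genes): MLLT3, KLHL9, MTAP, CDKN2A, CDKN2B, DMRTA1 and ELAVL2. These neighbours were listed with earlier results of these data known, so a share above that of all genes was built in. CDKN2A and CDKN2B encode inhibitors of the cell cycle kinases CDK4 and CDK6 and the p53 activator ARF, and MTAP salvages methionine. CDKN2A had folds of 7.28 to 11.1 (median 9.45) in the 6 other libraries, CDKN2B 9.67 to 13.9 (median 10.3) and MTAP 8.38 to 16.7 (median 12.5). No K562 peak lay between 20692854 and 26797044 of chromosome 9, a stretch of 6.10 Mb. The same stretch held 144 and 139 peaks in the GM12878 libraries, 46 and 48 in HEK293T and 109 and 111 in HFF1. All 6 genes there that were open in the 6 other libraries were K562-absent. They share 1 stretch without K562 peaks, so they do not count as 6 separate observations. Loss of DNA and closed chromatin both give no peak, and peak lists cannot tell them apart.

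Elsewhere the K562-absent genes stood alone or in shorter runs. In genome order over the genes open in all 6 other libraries, 257 of the 344 stood alone and 87 (25.3%) fell in runs of neighbours. There were 39 such runs, 33 of them of 2 genes. For 48 of the 344 genes the window overlapped that of another protein-coding gene, so some runs can rest on 1 missing peak. The 344 were 2.78% of the 12382 genes open in all 6 others, and the runs expected at that share were not computed. Apart from the 9p21 run of 6 genes, 5 runs held 3 genes each. One was ENOX1, LACC1 and CCDC122 on chromosome 13 (43213130 to 43893932), which held no K562 peak against 12 in each GM12878 library, 5 and 6 in HEK293T and 43 and 42 in HFF1. Another was LIN7A, ACSS3 and PPFIA2 on chromosome 12, with 1 K562 peak in each library against 13 to 24 in the others.

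The 15 best-ranked K562-absent genes had varied roles. CATSPERE, a subunit of a sperm calcium channel, had folds of 15.3 to 19.7 (median 16.8) in the 6 other libraries. HSPA2, a heat shock protein of the testis, had 9.54 to 14.8 (median 12.2). GPX1, the main cellular glutathione peroxidase, had 8.70 to 16.6 (median 9.35). ROBO1, a receptor for Slit guidance proteins, had 7.69 to 15.0 (median 9.17), and IVD, an enzyme of leucine breakdown, 11.6 to 16.8 (median 15.0). By the rule, none of them had a promoter peak in either K562 library. The other 10 were SIPA1L2, FLRT3, MTX3, P3H2, MFSD2A, OGFRL1, PRDM8, ZNF875, SEPTIN10 and SOWAHC, and the last 2 share a window.

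Immune genes also held K562-absent members. HLA-F, a non-classical class I gene, had folds of 11.3 to 13.8 (median 12.1) in the 6 others. HLA-B, HLA-C, HLA-E and the shared light chain B2M were open in all 8 libraries. Of the 23 antigen presentation genes, 14 were open in both K562 libraries (60.9%, against 70.4% of all genes), against 22 in GM12878, 15 in HEK293T and 19 in HFF1. The HLA genes differ between people and resemble each other, so their calls are uncertain. Of 30 interferon and innate sensing genes, 20 were open in both K562 libraries (66.7%, near the 70.4% of all genes), 30 in GM12878, 16 in HEK293T and 29 in HFF1. None of the 30 was K562-only or K562-absent, against 1.12% and 1.72% of all genes. At each share taken alone, a list of 30 would most often hold none. CGAS, the sensor of cytosolic DNA, was open in neither K562 library and in 4 of the 6 others. EYA1, a factor of kidney and ear development, was the K562-absent gene of the embryonic kidney list. All 10 reference genes were open in all 8 libraries. None of 15 B cell, 15 fibroblast or 15 embryonic kidney genes was K562-only, against 1.12% of all genes. At that share a list of 15 would most often hold none.

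The K562-only distal regions were spread over the genome. Of the 13920, 6078 lay in an intron (43.7%), 6758 between genes (48.5%) and 1084 touched an exon (7.79%). All 43554 K562 distal regions gave 41.8%, 49.5% and 8.69%. The median distance to the nearest start site was 22373 bp, with 29.1% within 10 kb and 17.0% beyond 100 kb. They were nearest to 6603 genes (33.1% of all genes), and to 81 of the 224 K562-only genes (36.2%) and 92 of the 344 K562-absent genes (26.7%). Lines with other list lengths gave other counts: 32952 GM12878-only regions, 3997 in HEK293T and 47510 in HFF1. Without K562 replicate 2 the K562 count was 22155, since a region then needed 1 K562 peak.

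The best-ranked K562-only region lay in an intron of GRM8, a metabotropic glutamate receptor (chromosome 7, 126667666 to 126668648), with folds of 15.1 in both libraries. The next were near POTEG (20.1 and 20.8), LAPTM5 (12.0 in both, a lysosomal membrane protein of blood cells), PITX1 (10.4 and 10.6, a limb and pituitary factor) and LSM3 (9.04 and 9.29). Regions near KLF4, ZFPM2, ARHGAP28 and NPHP4 closed the first 10, beside that near SLC25A37. KLF4 lay 603910 bp from its region, so nearest is not always near. The genes with the most K562-only regions were MTPN (25 of 35), ADGRB3 (24 of 40), ZFPM2 (20 of 41), ADCYAP1 (19 of 22) and QKI (19 of 35). Then came DEFB115 (18 of 33), INTU (18 of 30), NCAM2 (18 of 26), NFIA (18 of 35) and ZEB2 (18 of 35). The DEFB115 regions spread over 1879567 bp and those of ADGRB3 over 1859724 bp.

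The motif of GATA factors was compared over all distal peaks of each library, a measure that does not use the K562-only rule. GATAAG lay within 50 bases of the summit in 8.97% and 9.02% of distal peaks in the K562 libraries. It lay in 2.23% and 2.22% in GM12878, 2.75% and 2.67% in HEK293T, and 2.07% and 2.02% in HFF1. The letters read backwards gave 2.27% to 2.94% over the 8 libraries. The 2 K562 libraries stood above all 6 others and above that range, and none of the 6 passed its upper end. The means were 9.0% ± 0.0322 (SD, n = 2) and 2.33% ± 0.312 (SD, n = 6), a difference of 6.67 percentage points. The exact two-sided permutation test over the 28 ways to choose 2 of 8 libraries gave p = 0.0357, the smallest it can give, and 0.0714 after Benjamini-Hochberg adjustment over 10 motifs, which does not pass 0.05. Libraries of a line share their source, and an exact permutation test over the 4 line means gave p = 0.25, also the smallest it can give.

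The composite GATA-TAL site gave 1.85% and 2.02% in K562 and 0.191% to 0.216% in the 6 others, with 0.0501% to 0.0921% backwards. Its difference of 1.73 points had the same exact permutation p of 0.0357 and adjusted value of 0.0714. NFY (CCAATCA, bound by a general promoter factor) gave 2.88% and 2.90% in K562 against 0.983% to 1.38%. SP/KLF (CCACACCC, the CACCC box that KLF factors bind) gave 1.95% and 1.82% against 0.865% to 1.13%. ETS (CCGGAAG) gave 1.27% and 1.34% against 0.684% to 1.03%. Its backward letters gave 1.33% to 1.99% over the 8 libraries, with a mean of 1.94% in K562, above the forward letters there. K562 stood above the 6 others at each of these 3 as well, with the same p and adjusted value.

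NF-E2 (GCTGAGTCA) gave 1.91% and 1.88% in K562, against 1.65% and 1.61% in HFF1, 0.85% and 0.836% in GM12878 and 0.491% and 0.501% in HEK293T (exact permutation p = 0.0714, adjusted 0.119). Both K562 libraries lay above the 6 others here too, by a smaller margin over HFF1. Within 100 bases of the summit the NF-E2 difference had an exact permutation p of 0.0357, adjusted 0.0595. AP-1 (TGANTCA, letters that the NF-E2 motif contains) gave 11.1% and 11.0% in K562, close to GM12878 at 10.7% and 10.6% and below HFF1 at 20.6% in both. RUNX (TGTGGTT) was lower in K562, at 2.70% and 2.74%, than in GM12878 at 5.71% and 5.73% and HFF1 at 4.26% and 4.21%, and higher than in HEK293T at 2.21% and 2.16%. TEAD (GGAATG) gave 4.88% and 4.90% in K562, below HEK293T and HFF1 and above GM12878 at 3.17% and 3.09%. The CTCF core gave 8.55% and 8.88% in K562, between GM12878 and HEK293T. The adjusted p of AP-1, RUNX, TEAD and CTCF lay between 0.561 and 1.00 in the exact permutation test.

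**Figure D4:**
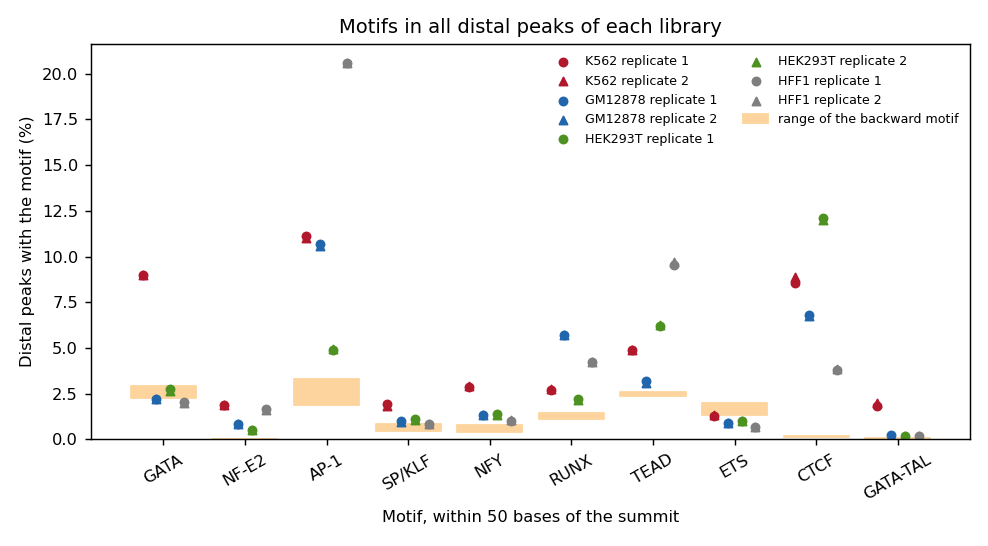
Share of all distal peaks of a library (y axis, percent) with each motif (x axis) within 50 bases of the summit, with circles for replicate 1, triangles for replicate 2 and bands for the range of the same letters read backwards over the 8 libraries. K562 lies at 8.97% and 9.02% for GATA, and the other 6 libraries lie between 2.02% and 2.75%.

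The peak names fall into 3 prefixes, which may mark batches. K562, HEK293T and HFF1 share AH for replicate 1 and BH for replicate 2, and GM12878 has a prefix of its own that cannot be told apart from the line. The GATA difference was 6.56 points among the AH libraries and 6.67 among the BH libraries, and that of the composite site was 1.66 and 1.82. Depth differed too: the background level recovered from the fold and p of each peak, which is proportional to depth, was 2.21 and 1.97 reads per window in K562. It was 1.71 and 1.73 in GM12878, 0.46 and 0.47 in HEK293T, and 2.43 and 2.06 in HFF1. K562 had 78601 and 71241 peaks, and the others had from 52137 in HEK293T to 127359 in HFF1. A shallow library can miss weak peaks. Without HEK293T, the shallowest line, the K562-only genes were 289, the K562-absent genes 645 and the K562-only distal regions 16037.

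Among the K562 distal regions, those with GATA were mostly K562-only. Of the 4167 with GATAAG, 2718 had no peak in another line (65.2%), against 28.4% of those without it. Of the 909 with the composite site, 670 were K562-only (73.7%). NFY regions gave 54.1% and SP/KLF regions 40.0%. CTCF regions went the other way: 246 of 4216 were K562-only (5.83%), against 34.8% of the regions without the core.

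Seen from the other side, GATAAG lay in 19.5% of the K562-only regions and in 4.89% of the K562 regions with a peak in another line. It lay in 2.21% of GM12878-only, 4.95% of HEK293T-only and 1.82% of HFF1-only distal regions. The share fell with rank: it was 27.0% in the 2784 best-ranked K562-only regions and, in the following sets of the same size, 22.1%, 18.0%, 15.8% and 14.7%. The backward letters stayed between 1.83% and 2.80% over these 5 sets. NFY ran the opposite way, from 3.52% in the best-ranked set to 7.29% in the last. Regions with more than 1 GATAAG made up 1.25% of the K562-only regions. The 177 K562-only regions nearest to a gene of the 4 erythroid lists held GATAAG in 31.1% of cases and the composite site in 7.34%, against 19.4% and 4.78% of the 13743 nearest to other genes. These shares describe regions chosen by the rule and carry no test.

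GATA matches gathered at the summits. Among the K562-only regions, the 20 bases around the summit held 48.5 matches per 1000 regions, and the bins farthest from it held 8.12 and 9.99. The K562 regions with a peak in another line held 11.1 at the summit. The backward letters gave 5.24 there.

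**Figure D5:**
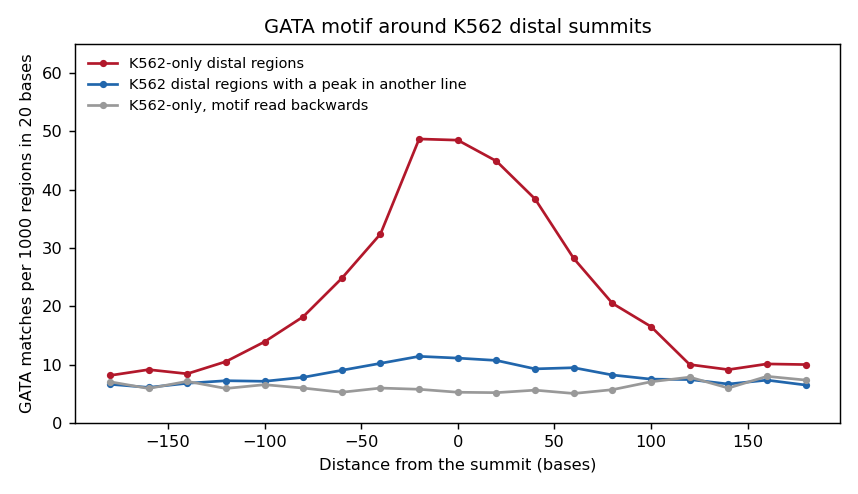
GATAAG matches on either strand per 1000 regions in bins of 20 bases (y axis) by distance from the K562 summit (x axis, bases), for K562-only distal regions (red), K562 distal regions with a peak in another line (blue) and K562-only regions with the letters read backwards (grey). The red line reaches 48.7 near the summit and falls to 8.12 at the left end, while the blue line stays at or below 11.4.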

How the data were processed

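Bulk ATAC-seq peak lists of 8 human libraries were used, 1 list per library, so the authors did not pool replicates. The submitters' processing notes name cutadapt 3.2, Bowtie2 2.4.2, Picard and MACS2 2.2.7.1 and the build hg38, without their settings. Each deposited peak carries a fold, which is a linear ratio of its summit over local background, and a −log10 p and a −log10 q value, all made by the authors. Percentiles for ranking and filters were taken inside 1 list at a time. Folds of several libraries were also put together as ranges and medians, and in the correlations of replicate numbers. Each fold is relative to the background of its own library, so folds of different libraries need not share a scale. The lowest deposited −log10 q was 2.00 to 2.05 in every list, and no peak passed a chromosome end of GRCh38.

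Peaks on the autosomes and X were kept. Start sites came from GENCODE release 44, an overlap of 1 bp counted, and each distal region went to the protein-coding gene with the nearest start site. Motifs were searched on both strands within 50 bases of the summit in GRCh38, and no sequence from chromosomes 8 and 18 was printed. Motif shares were compared by an exact permutation test over libraries. The overlap, motif and permutation code was tested on simulated data. Named genes were the listed members of each set and the 15 best-ranked. For distal regions they were the 10 genes with the most regions, the 10 best-ranked regions and the best regions of erythroid list members. Some items that the rule names are not reported here. The members and gene lists were chosen with earlier results of these data known. Alternatives were other peak thresholds, list lengths, overlaps, windows, start sites and libraries left out. Depth is known only as a relative background level, so no interval for counting error is given. Because nothing says that replicates came from separate cultures, p-values measure only the spread between these libraries. Python 3.11.15, pandas 2.3.3, numpy 2.4.6, pysam 0.24.0, samtools 1.23.1 and matplotlib 3.10.9 were used.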

Additional observations from a re-analysis of the deposited data

How the results depend on the processing

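The 224 K562-only genes became 226 with a −log10 q of at least 5, 225 with an overlap of 50 bp, 235 with a window of 500 bp, 273 with the most upstream start site and 321 with the 45000 best peaks of each library, and 204, 217, 195, 179 and 114 of the 224 stayed among them. The 344 K562-absent genes became 348, 343, 351, 334 and 231 under the same settings, and 321, 342, 314, 254 and 143 of the 344 stayed. With the 45000 best peaks the K562-only genes therefore outnumbered the K562-absent genes, the opposite of the order with the whole lists. GATA1 and TAL1 were K562-only under all of these. Leaving out 1 library gave 233 to 289 K562-only genes, 349 to 432 K562-absent genes and 14175 to 22155 K562-only distal regions. Without the HEK293T line, the shallowest, the K562-absent genes were 645. The 45000 best peaks gave 8232 K562-only distal regions. The AH libraries alone gave 543 K562-only genes, 826 K562-absent genes and 28425 distal regions, and the BH libraries alone 538, 875 and 24677. Each of these settings uses 1 K562 library and 2 others and leaves out GM12878, so fewer libraries had to hold a peak and fewer had to lack one. This pair was chosen after seeing the data.

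The GATA difference kept its direction under all alternatives tried, and no test among them passed the adjusted threshold. The AH and BH settings had no test. The exact permutation test could give no p below 0.143 with 1 K562 library left out, or 0.0667 without HEK293T, so these could not pass. With the replicate number as a block (replicate block) the GATA difference was 6.67 points. Its exact permutation p was 0.0625, the smallest of the 16 ways, so it could not pass either. The numbers did not pair the libraries: same-numbered deviations of promoter fold correlated between -0.00461 and 0.0152 over pairs of lines, across genes, which are not independent replicates. The AP-1 difference of -1.0 ran from -2.43 to 0.711 when 1 library was left out, and turned to 0.711 and 0.706 without HFF1 replicate 1 and 2. HFF1 had the highest AP-1 share, 20.6% in both libraries, so leaving 1 of them out lowered the mean of the others. Why the lines differ in AP-1 share was not tested.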
